A study of Mus musculus with 6 samples.

Results

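The tight junction, adherens junction and desmosome genes described here are 39 listed genes of epithelial cell contacts, with 2 gap junction genes and 2 epithelial splicing regulators among them. They were chosen by name, through the transcript accession of each array probe, and all 39 had a probe among the 20145 genes matched on the array. Of these, 36 passed the filter on dim probes and were tested. The RNA came from primary mammary epithelial cells, freed from the glands of female mice aged 8 weeks, of 129sv/C57Bl6 strain. There were 3 samples homozygous null for Plk2 (Plk2 -/-) and 3 wild-type samples, each hybridised to its own one-colour Agilent array after Cy3 labelling. Plk2 encodes a polo-like serine/threonine kinase, and the study asked how gene expression differs in its absence. The labels do not give the deleted part of Plk2, name a sort for epithelial cells, or state that each sample came from a separate animal, so p-values measure the spread between these samples.

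Epithelial cells are joined by a set of contacts arranged along their sides. Tight junctions, built from claudins, occludin and related membrane proteins on scaffolds such as the ZO proteins, set how freely ions and solutes pass between cells. Adherens junctions hold cells together through E-cadherin and its catenins, and desmosomes do so through desmogleins, desmocollins and the plaque proteins that tie them to keratin. In the mammary gland these contacts differ between luminal cells, which line the duct, and basal myoepithelial cells, and tight junctions close as milk secretion begins.

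Levels are log2 processed signals after subtraction of each array's 75th percentile, so that 0 is the 75th percentile of the gene spots and 1 unit is a 2-fold change. Plk2 checked the labels: its level was -6.97, -7.20 and -7.00 in the null samples, against 2.18, 2.22 and 2.38 in the wild-type samples, which puts the null level at least 149.8-fold below wild type (limma adjusted p = 3.61e-06). The share of probes well above background was 51.2% to 54.7% on null arrays and 50.2% to 52.2% on wild-type arrays (exact permutation p = 0.2, two-sided; the smallest possible is 0.1). All 6 arrays were on 1 slide, the null arrays in its second row and the wild-type arrays in its first, so that genotype and slide row cannot be told apart. Null sample 3 was remote on principal component 2 (-74.0, against -2.88 to 26.5 for the other 5 arrays), and differences are therefore also given without it. With 3 arrays a group, precision is limited by their number.

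No junction gene passed an adjusted p of 0.05 over all 24609 tested entries, where 0.565% of entries did (limma, Benjamini-Hochberg adjustment). At an adjusted p of 0.1, 1 of 36 passed, Gjb2, which encodes a gap junction connexin, against 6.66% of all entries. An unadjusted p under 0.05 was reached by 6 of 36, against 23% of all entries: 4 were higher in null cells, Gjb2, Tjp3, Cldn23 and Cldn7 (13.5% of all entries), and 2 were lower, Cldn4 and Gja1 (9.54%). The null and wild-type values did not overlap for 8 of 36, the same 6 genes with Pkp2 and Dsc2, against 31.5% of all entries. Each of these shares lies below that of all entries. The median difference, null minus wild type, was 0.067 over the 36 genes and 0.031 over all entries. Differences were positive for 21 and negative for 15 of the 36, against 52.9% positive over all entries, and spike-in scaling, which added 0.29 to every difference, changed the sign of 9 of the 36. All but Gjb2 lay between the 5th and 95th percentiles of all entries, -0.90 and 0.82. In bulk samples such as these, fewer cells of a type and less RNA per cell cannot be told apart.

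**Figure D1:**
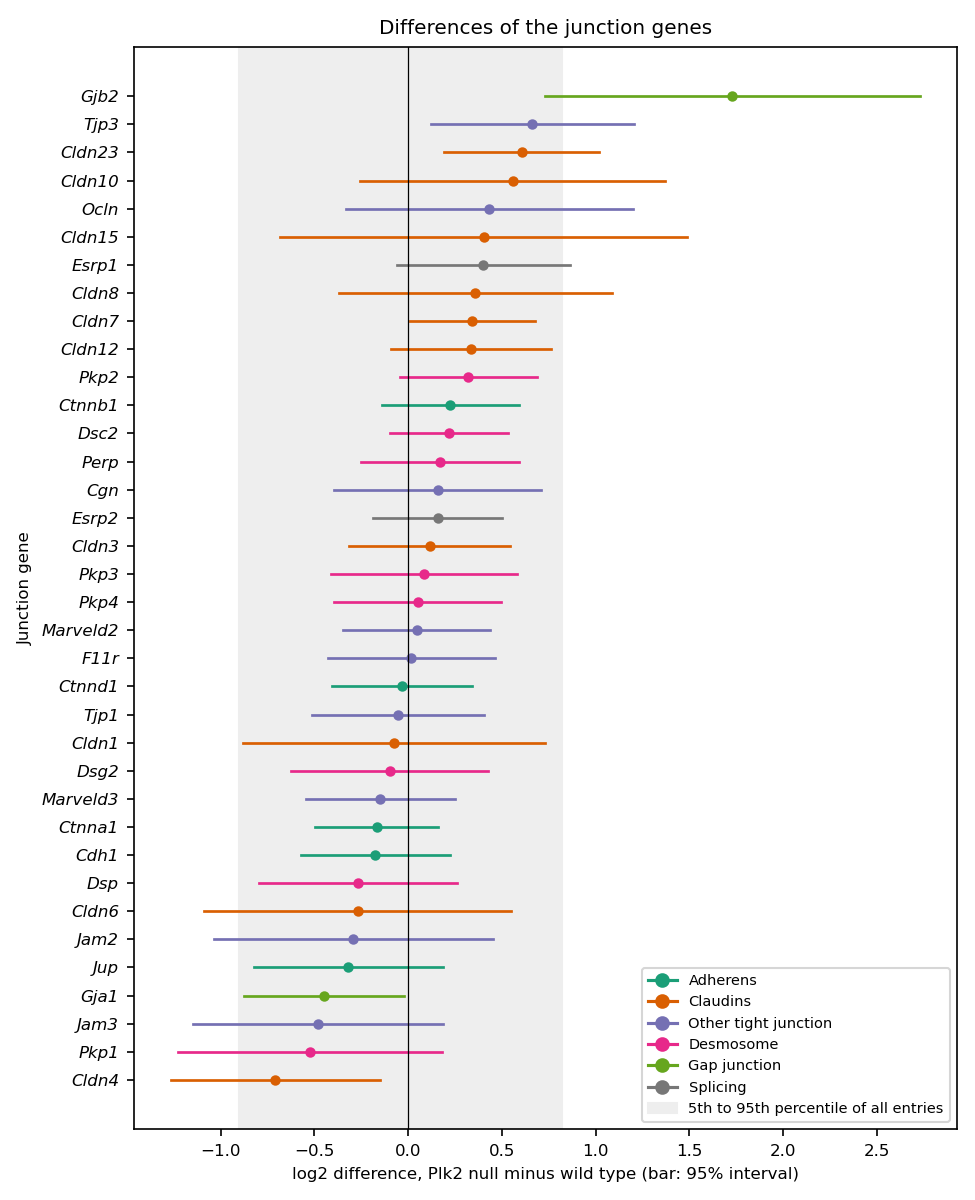
Log2 difference of each of the 36 tested junction genes, Plk2 null minus wild type, with its 95% interval (limma, 3 samples each), ordered by size and coloured by role. The grey band runs from -0.90 to 0.82, the 5th to 95th percentiles of all tested entries, and only the point of Gjb2, at 1.73, lies outside it.

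None of the 5 adherens junction genes passed any threshold. Cdh1, which encodes E-cadherin, the cadherin that holds epithelial cells together, had levels of 3.60, 3.50 and 3.21 in null samples 1, 2 and 3, against 3.45, 3.66 and 3.72 in wild-type samples 1, 2 and 3. The groups overlapped, and null sample 3 was the lowest of all 6 samples. The difference was -0.17 (SE 0.17; limma adjusted p = 0.562), with a 95% interval of -0.57 to 0.22, or -0.061 without null sample 3. Ctnna1, the alpha-catenin that links cadherin complexes to actin, had levels of 6.47, 6.41 and 6.36 in the null samples, against 6.45, 6.61 and 6.69 in the wild-type samples. The groups overlapped through wild-type sample 1, and the difference was -0.17 (SE 0.14). Ctnnb1, which encodes beta-catenin, a cadherin partner that also acts in Wnt signalling, had levels of 3.96, 4.06 and 3.84 in the null samples, against 3.57, 3.72 and 3.90 in the wild-type samples, and was the 1 gene of the 5 with a positive difference, 0.23 (SE 0.15). Ctnnd1, a catenin that stabilises cadherin at the surface, differed by -0.033 (SE 0.16). Jup, which encodes plakoglobin, a catenin shared with desmosomes, had levels of -0.56, -0.26 and -0.91 in the null samples, against -0.28, -0.048 and -0.43 in the wild-type samples and differed by -0.32 (SE 0.21), or -0.15 without null sample 3. Their median difference was -0.17, but with arrays scaled on spike-in controls, which moved the median of all entries to 0.32, Cdh1, Ctnna1 and Ctnnd1 became positive and only Jup stayed negative.

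Among claudins, Cldn4 was lower in null cells and Cldn23 and Cldn7 were higher before adjustment, and none passed over all entries. Cldn4, a claudin of tight epithelial barriers, had levels of 3.41, 3.47 and 3.94 in the null samples, against 4.18, 4.07 and 4.69 in the wild-type samples. Every null value lay below every wild-type value, with null sample 3 nearest to wild type. The difference was -0.71 (SE 0.23; limma adjusted p = 0.149), a 1.63-fold lower level with a 95% interval of -1.27 to -0.15 on the log2 scale, and -0.88 without null sample 3. A second probe of the same transcript gave 2.90, 3.15 and 3.64 in null and 3.88, 3.81 and 4.19 in wild-type samples, and a difference of -0.73 (SE 0.23). The difference ranged over -0.88 to -0.52 as each sample was left out in turn, and was -0.42 with spike-in scaling (limma adjusted p = 0.332).

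Cldn23 had levels of -0.997, -1.21 and -1.11 in the null samples, against -1.57, -1.99 and -1.57 in the wild-type samples. The null samples lay close together and above all wild-type samples, a difference of 0.61 (SE 0.17; limma adjusted p = 0.117). Cldn7, a claudin found along the lateral membrane as well as at tight junctions, had levels of 7.11, 7.07 and 7.09 in the null samples, against 6.73, 6.61 and 6.89 in the wild-type samples. Its null SD of 0.021 was the lowest of the 36 genes, and its difference was 0.34 (SE 0.14; limma adjusted p = 0.207), or 0.64 with spike-in scaling. Cldn3, a sealing claudin, had levels of 4.98, 4.92 and 4.82 in the null samples, against 4.58, 4.70 and 5.10 in the wild-type samples. Those groups overlapped, with a difference of 0.11 (SE 0.18) that was -0.013 with the values of the authors' deposited table.

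The other claudins did not separate the groups. Cldn10, a claudin that forms ion-selective pores, was highest in null sample 3, at 3.97, and differed by 0.56 (SE 0.34), or 0.19 without that sample. Cldn15, also a pore-forming claudin, was lowest in wild-type sample 1, at -1.42, and differed by 0.40 (SE 0.45). Cldn8 was lowest in wild-type sample 2, at -0.66, and differed by 0.36 (SE 0.30). In each of these 3 genes a single sample held the extreme value. Cldn1, which the skin barrier of mice requires, had levels of -1.55, -1.68 and -2.78 in the null samples, against -1.99, -2.08 and -1.71 in the wild-type samples. Null sample 3 was the lowest, and the difference was -0.076 (SE 0.34) with it and 0.31 without it. Cldn12 differed by 0.33 (SE 0.18), and Cldn6, a claudin of early epithelia, by -0.27 (SE 0.34). Differences were positive for 7 of the 10 tested claudins, at a median of 0.34; spike-in scaling turned Cldn6 and Cldn1 positive as well, and the deposited table's values turned Cldn3 negative.

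Cldn2, which forms cation-selective pores in leaky epithelia, could not be tested. Its brighter probe was well above background on 1 of 6 arrays, that of null sample 1, where the processed signal was 17.7, against 7.12 and 1.89 in null samples 2 and 3 and 2.31, 2.55 and 2.04 in wild-type samples. Its other probe reached that level on none of the 6 arrays, with signals of 1.82 to 2.75. The 2 probes therefore disagreed in null sample 1.

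Cldn4 and Cldn3 lie next to each other on chromosome 5, with no other coding gene between them in the RefSeq table, and had differences of -0.71 and 0.11. The interval for Cldn3 was -0.31 to 0.54, so it has no settled direction. The 250 bases before the start of each are shown because the groups did not overlap for Cldn4 and did for its neighbour. They are RefSeq sequences of the GRCm38.p6 build, from chr5:134946935-134947184 on the minus strand and chr5:134985964-134986213 on the plus strand, written 5′ to 3′ along the gene. Capitals mark matches on either strand to CAGGTG, the E-box that Snail and Zeb factors bind, GGGCGG, a GC box of Sp1, AACCNGTT, a site of Grainyhead-like factors, and TTCNNNGAA, a site of Stat5.
Cldn4: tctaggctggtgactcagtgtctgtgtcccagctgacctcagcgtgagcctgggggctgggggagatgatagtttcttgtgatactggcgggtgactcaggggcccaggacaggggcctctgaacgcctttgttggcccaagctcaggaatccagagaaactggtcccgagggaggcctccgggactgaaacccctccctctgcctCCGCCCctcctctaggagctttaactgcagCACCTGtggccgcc
Cldn3: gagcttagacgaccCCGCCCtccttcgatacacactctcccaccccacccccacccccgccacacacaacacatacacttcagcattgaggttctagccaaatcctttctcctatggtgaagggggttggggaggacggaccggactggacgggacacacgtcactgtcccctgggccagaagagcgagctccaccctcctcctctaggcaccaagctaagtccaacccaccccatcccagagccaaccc
The Cldn4 window holds 1 E-box, 14 bases before the start, and 1 GC box. The Cldn3 window holds 1 GC box and no E-box. No marked matches overlap. E-box letters stand in 17.2% of all 32841 windows of this length in the table, GC box letters in 32.7%, Grainyhead letters in 1.79% and Stat5 letters in 7.02%. Over the 32 windows of the 22 listed junction genes in the table, the shares were 28.1%, 68.8%, 3.12% and 9.38%. These matches describe letters, and no binding was measured.

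Of the other tight junction genes, Tjp3 was higher in null cells before adjustment. Tjp3 encodes ZO-3, a scaffold that anchors claudins and occludin inside the cell, and had levels of 4.22, 4.71 and 4.08 in the null samples, against 3.39, 3.72 and 3.90 in the wild-type samples. Every null sample lay above every wild-type sample, null sample 2 by the most. The difference was 0.66 (SE 0.23; limma adjusted p = 0.157), a 1.58-fold higher level with a 95% interval of 0.12 to 1.21 on the log2 scale, and 0.79 without null sample 3. It passed the threshold under 1 of 18 alternatives, another background correction (0.74; limma adjusted p = 0.0472), against 5.03% of all entries there, and adjusted p-values over the 18 ran up to 0.349. Tjp1, which encodes the related scaffold ZO-1, had levels of 2.86, 2.73 and 2.39 in the null samples, against 2.48, 2.77 and 2.90 in the wild-type samples, overlapping groups and a difference of -0.054 (SE 0.19).

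Ocln, which encodes occludin, had levels of 2.07, 1.498 and 1.78 in the null samples, against 1.94, 0.75 and 1.36 in the wild-type samples. Wild-type sample 2 was the lowest, and the groups overlapped. Its difference was 0.43 (SE 0.32), and its second probe gave 0.30 (SE 0.20). Marveld2, which encodes tricellulin, the occludin relative found where 3 cells meet, differed by 0.046 (SE 0.16). Marveld3, the third protein of that family, has a probe for each of 2 transcripts. The brighter one (NM_212447) was highest among null samples in null sample 3, at 1.99, whereas the other (NM_028584) was lowest there, at 0.47. Their differences were -0.15 (SE 0.17) and -0.046 (SE 0.23). Cgn, which encodes cingulin, a link from tight junctions to the cytoskeleton, differed by 0.16 (SE 0.23), or 0.37 without null sample 3. F11r, which encodes the adhesion molecule JAM-A, differed by 0.017 (SE 0.19), with a 95% interval of -0.43 to 0.46.

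Jam2 and Jam3, which encode JAM-B and JAM-C, adhesion molecules also found on endothelium, had their lowest values in null sample 2. Jam3 had levels of 1.51, 1.03 and 2.09 in the null samples, against 2.22, 1.90 and 1.95 in the wild-type samples, and Jam2 had 2.09, 1.76 and 2.87 in the null samples, against 2.23, 2.79 and 2.59 in the wild-type samples. In both genes null samples 1 and 2 lay below the wild-type samples and null sample 3 lay within or above their range. The differences were -0.48 (SE 0.28) for Jam3 and -0.29 (SE 0.31) for Jam2, and -0.75 and -0.61 without null sample 3. Endothelial markers were also lowest in null sample 2 and highest in null sample 3 among null samples: their median over 9 tested genes was -0.24, -0.78 and 0.047 in null samples 1, 2 and 3, against -0.32, 0.19 and -0.013 in wild-type samples 1, 2 and 3, relative to the wild-type mean, with 9 of 9 differences negative (6 of 9 with spike-in scaling, at a median of -0.011) and a summed level (log2 of the sum of linear levels) of 6.18 to 6.87 in null and 6.59 to 7.24 in wild-type samples. All 9 endothelial markers were tested, and their part in the Jam2 and Jam3 values was not tested.

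Desmosome genes did not separate the groups past any threshold, and a pair of desmosomal cadherins could not be tested. Dsg3 and Dsc3, a desmoglein and a desmocollin of basal keratinocytes, each have 2 probes, and none of these probes was well above background in any sample. Their signals ran from 1.81 to 8.50 on the null arrays and from 2.13 to 4.13 on the wild-type arrays. Dsg2, the desmoglein of simple epithelia, was well above background in all 6 samples, with levels of 1.56, 2.03 and 1.29 in the null samples, against 1.57, 1.88 and 1.72 in the wild-type samples. Its difference was -0.097 (SE 0.22), and its second probe gave 0.053 (SE 0.21), the 1 of 6 further kept probes with the opposite sign to the probe used. Dsc2, its desmocollin partner, had levels of 0.48, 0.41 and 0.57 in the null samples, against 0.30, 0.20 and 0.29 in the wild-type samples. The groups did not overlap, but the gap was small and the difference was 0.22 (SE 0.13; limma adjusted p = 0.362), or 0.51 with spike-in scaling.

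Dsp, which encodes desmoplakin, the plaque protein that binds keratin filaments, had levels of 2.90, 2.99 and 2.33 in the null samples, against 2.78, 3.18 and 3.06 in the wild-type samples. Null sample 3 was the lowest of all. The difference was -0.27 (SE 0.22), or -0.063 without that sample, and a second, much dimmer probe gave -0.51 (SE 0.18). Among plakophilins, plaque proteins that cluster desmosomal cadherins, Pkp2 had levels of 3.65, 3.66 and 3.33 in the null samples, against 3.22, 3.17 and 3.29 in the wild-type samples. Its groups did not overlap, and its difference was 0.32 (SE 0.15; limma adjusted p = 0.265), or 0.61 with spike-in scaling. Pkp1, the plakophilin of stratified epithelia, had levels of 3.67, 3.75 and 3.03 in the null samples, against 3.55, 4.44 and 4.04 in the wild-type samples, lowest in null sample 3, and differed by -0.52 (SE 0.29), or -0.30 without null sample 3. Pkp3 differed by 0.083 (SE 0.21) and Pkp4 by 0.05 (SE 0.19). Perp, which encodes a desmosomal membrane protein that p53 and p63 induce, had levels of 5.06, 5.47 and 5.09 in the null samples, against 4.85, 5.12 and 5.14 in the wild-type samples and differed by 0.17 (SE 0.18). Over the 8 tested desmosome genes the median difference was 0.067, 5 were positive and 3 negative (Dsp and Dsg2 turned positive with spike-in scaling), and 0 reached an unadjusted p under 0.05 by limma.

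Gjb2 had the largest difference of the 36 genes. It encodes a connexin of luminal cells, known in rodents to increase in the mammary gland through pregnancy and lactation. Its levels were 2.49, 3.19 and 1.62 in the null samples, against 0.52, 0.40 and 1.19 in the wild-type samples. Every null sample lay above every wild-type sample, with null sample 2 the highest, null sample 3 the lowest of the null samples and wild-type sample 3 the highest of the wild type. The mean was 2.43 ± 0.78 in null and 0.70 ± 0.43 in wild-type samples (SD, n = 3 each), a difference of 1.73 (SE 0.42; limma adjusted p = 0.0952). That is 3.32-fold higher, with a 95% interval of 1.66-fold to 6.63-fold. Without null sample 3, the lowest null value, the difference was 2.13 and passed the threshold (limma adjusted p = 0.0405). Without null sample 2, the highest, the Gjb2 difference was 1.35 and did not pass (limma adjusted p = 0.199). Over 18 alternatives it passed in 3, leaving out null sample 3 (2.86% of all entries passed), another background correction (1.65) and array weights (2.03; 5.99% of all entries), with adjusted p-values from 0.0332 to 0.259.

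Gja1, which encodes the connexin of myoepithelial cells, went the other way. Its levels were 0.53, 0.091 and 0.36 in the null samples, against 0.57, 0.89 and 0.87 in the wild-type samples. The groups did not overlap, although null sample 1 and wild-type sample 1 nearly met. The difference was -0.45 (SE 0.18; limma adjusted p = 0.201), a 1.37-fold lower level with a 95% interval of -0.88 to -0.022 on the log2 scale. With spike-in scaling it was -0.16 (limma adjusted p = 0.753). Markers of basal cells, in which Gja1 is known to be expressed, were positive in 9 of 10, against 52.9% of all entries. Their median was 0.51, with a summed level of 9.57 to 9.79 in null and 8.78 to 9.48 in wild-type samples. Markers of fibroblasts, endothelium and pericytes were negative in 8 of 8, 9 of 9 and 6 of 6. Those medians were -0.37, -0.30 and -0.43, and with spike-in scaling 6 of 8, 6 of 9 and 4 of 6 were negative. The part of any of these cells in the Gja1 values was not tested.

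**Figure D2:**
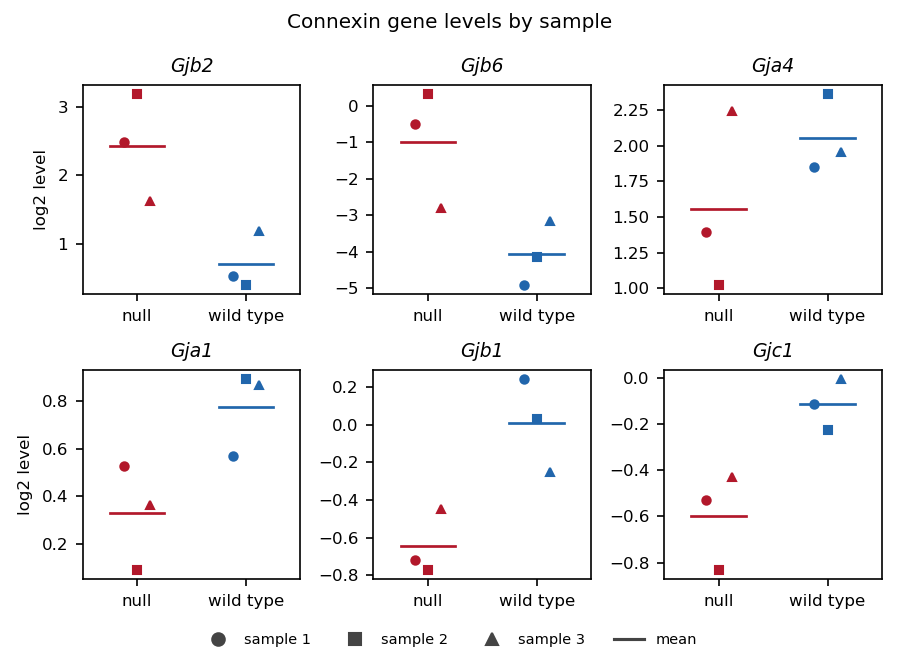
Log2 level of 6 connexin genes in each sample, null samples left and wild-type samples right in each panel (points, 3 samples each; horizontal line, mean). The vertical scale differs between panels. Gjb2 and Gjb6 lie higher in all 3 null samples than in any wild-type sample, Gja1, Gjb1 and Gjc1 lie lower, and the groups overlap for Gja4.

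Other connexin genes divided in the same 2 directions. Gjb6, the coding gene next to Gjb2 on chromosome 14, had levels of -0.50, 0.33 and -2.80 in the null samples, against -4.91, -4.15 and -3.16 in the wild-type samples, and it was well above background on 2 of the 3 wild-type arrays. The groups did not overlap, but null sample 3 lay close to wild-type sample 3. The difference was 3.08 (SE 0.83; limma adjusted p = 0.109), and 3.99 without null sample 3, where it passed (limma adjusted p = 0.0302). It was 1.46 with normexp background correction (limma adjusted p = 0.0904), and 2.42 to 3.99 as each sample was left out, so that its size is uncertain. Gja3, on the other side of Gjb2, was not well above background in any sample. Gja4, a connexin of blood vessels, differed by -0.50 (SE 0.33). Gjb1, a connexin of liver and of myelinating Schwann cells among other tissues, had levels of -0.72, -0.77 and -0.45 in the null samples. Its wild-type levels were 0.24, 0.032 and -0.25, and the difference was -0.65 (SE 0.18, limma adjusted p = 0.115). Gjc1 differed by -0.48 (SE 0.16; limma adjusted p = 0.155).

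The 250 bases before the starts of Gjb2 and Gjb6 are shown because both adjacent genes were higher in every null sample than in any wild-type sample. They come from the same RefSeq table and build, from chr14:57104703-57104952 on the minus strand and chr14:57133612-57133861 on the minus strand, 5′ to 3′ along the gene, with the same 4 motifs in capitals.
Gjb2: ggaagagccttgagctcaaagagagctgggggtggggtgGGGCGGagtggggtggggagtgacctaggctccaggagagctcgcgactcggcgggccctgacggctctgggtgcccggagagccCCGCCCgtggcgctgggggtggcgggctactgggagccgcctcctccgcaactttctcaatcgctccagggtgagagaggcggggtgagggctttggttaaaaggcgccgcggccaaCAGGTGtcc
Gjb6: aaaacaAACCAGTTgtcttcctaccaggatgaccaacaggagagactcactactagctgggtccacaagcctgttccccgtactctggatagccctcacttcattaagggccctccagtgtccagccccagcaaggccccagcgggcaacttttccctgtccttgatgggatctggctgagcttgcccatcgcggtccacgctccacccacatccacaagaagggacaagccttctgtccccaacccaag
The Gjb2 window holds 2 GC boxes and an E-box 9 bases before the start. The Gjb6 window holds neither, and 1 Grainyhead match, AACCAGTT, 244 bases before the start. No Stat5 letters stand in either window, and the 2 windows share none of the 4 motifs.

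Levels of alveolar cell genes were measured beside those of Gjb2. Of 8 listed alveolar and progenitor genes 5 were tested, 3 with a positive and 2 with a negative difference, and the summed level of all 8 was 5.53 to 6.20 in null and 5.36 to 6.48 in wild-type samples. Elf5, a transcription factor of alveolar cells, differed by 1.71 (SE 0.29), and Lalba, a milk protein gene, by 1.14 (SE 0.50). Ltf, which encodes lactoferrin, and Aldh1a3, an aldehyde dehydrogenase of luminal progenitors, went the other way, by -2.08 (SE 0.64) and -1.59 (SE 0.35). The milk protein genes Csn2, Csn3 and Wap were not tested, since they cleared background on only 2 null arrays and no wild-type array. Csn2, a casein gene, had levels of 2.58, 3.65 and -6.54 in the null samples, against -5.13, -6.61 and -7.08 in the wild-type samples. Relative to the wild-type mean, the median of the 5 tested genes was 0.62, 0.46 and -0.40 in null samples 1, 2 and 3, against -0.075, 0.19 and -0.28 in wild-type samples 1, 2 and 3. Null sample 3 was the lowest null sample in that list, as it was for Gjb2 and Gjb6. Of 10 listed cell division genes 8 were tested, and these were higher in null samples, at a median difference of 2.17. Cdk1, well above background on 2 null arrays and no wild-type array, and Aurkb, on none of the 6 arrays, were not tested. An unadjusted p under 0.05 (limma) was reached by 8 of the 8 tested, against 13.5% of all entries. Lymphocyte genes were lower, with a median of -2.48 and an unadjusted p under 0.05 in 11 of 11, against 9.54%. None of the genes of either list passed an adjusted p of 0.05 (limma). Both lists were chosen with earlier results of these data known, so their counts are description and no independent support. The part of these cells and genes in the Gjb2 values was not tested.

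The epithelial splicing regulators, RNA-binding proteins that keep epithelial isoforms of junction and receptor genes, were not separated. Esrp1 had levels of 3.07, 3.32 and 2.70 in the null samples, against 2.56, 2.58 and 2.76 in the wild-type samples. Null samples 1 and 2 lay above all wild-type samples and null sample 3 among them. The difference was 0.40 (SE 0.19; limma adjusted p = 0.269), its dimmer probe gave 0.31 (SE 0.17), and without null sample 3 it was 0.57. Esrp2 had levels of 1.20, 1.22 and 1.11 in the null samples, against 1.14, 1.06 and 0.85 in the wild-type samples and differed by 0.16 (SE 0.14). Of 14 transcription factors that raise or repress junction genes, 1 had a positive and 3 a negative difference at an unadjusted p under 0.05, and 0 passed over all entries (limma). Those 4 are 28.6% of the list, against 23% of all entries. Ehf, an epithelial Ets factor, differed by 0.98 (SE 0.31). The repressors Zeb1, Twist2 and Twist1 differed by -0.75 (SE 0.21), -0.68 (SE 0.18) and -0.59 (SE 0.21). Snai2, a repressor of the Snail family, went the other way from Zeb1 and the Twist genes, by 0.81 (SE 0.34). Grhl2, a Grainyhead-like activator of Cdh1 and claudin genes, differed by 0.38 (SE 0.22). Fibroblast markers, cells in which Zeb1 and the Twist genes are known to be expressed, were negative in 8 of 8 and, with spike-in scaling, in 6 of 8 (median -0.37, or -0.082 with that scaling, summed level 10.17 to 10.67 in null and 10.74 to 10.87 in wild-type samples), and their part in those values was not tested.

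Samples of 1 group differed among themselves by about as much as most genes differed between groups. The SD within a group had a median of 0.23 over the 36 genes in null and 0.21 in wild-type samples, and the median size of a difference was 0.27. Gjb2 varied the most among null samples (SD 0.78) and Cldn15 among wild-type samples (SD 0.94). Null sample 3 was the lowest null sample for 21 of the 36 genes, null sample 2 for 10 and null sample 1 for 5. The median of all 36 relative to the wild-type mean lay at 0.15, 0.15 and 0.061 in null samples 1, 2 and 3, against -0.16, 0.027 and 0.13 in wild-type samples 1, 2 and 3, and those ranges overlap. For adherens junction genes it lay at -0.0095, -0.00069 and -0.22 in the null samples, and for desmosome genes at 0.07, 0.26 and -0.21, with null sample 3 below the others in both. For claudins it lay at 0.31, 0.27 and 0.24, null sample 3 again the lowest, by a smaller gap.

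**Figure D3:**
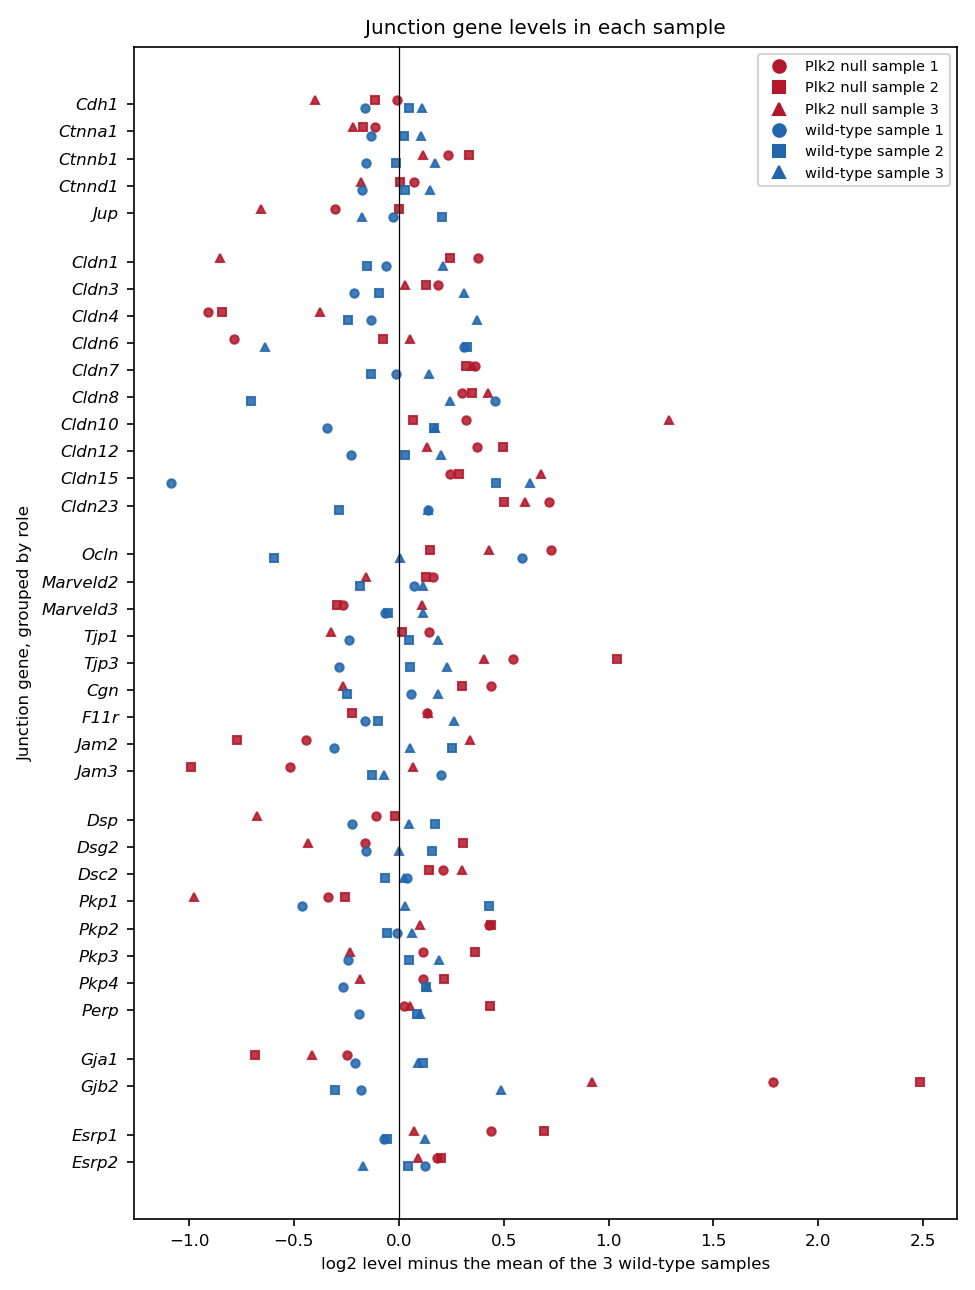
Log2 level of each of the 36 tested junction genes in each sample, relative to the mean of the 3 wild-type samples, grouped by role (red, null; blue, wild type; the marker shape gives the sample number). Red and blue points mix for most genes, Gjb2 lies to the right in all 3 null samples and Cldn4 to the left, and null sample 3 (red triangles) is lowest for Cdh1, Jup, Cldn1, Dsp and Pkp1.

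The other genes of these contacts showed as little separation. Of 59 listed genes 44 were tested, 0 passed an adjusted p of 0.05 or of 0.1, and 4 reached an unadjusted p under 0.05 (limma), 1 higher and 3 lower. Over all entries these shares were 0.565%, 6.66% and 23%, with 13.5% higher and 9.54% lower. Their median difference was -0.048, with 22 positive and 22 negative. Besides the connexins, Nectin2, an adherens junction adhesion molecule, had levels of 3.76, 3.43 and 3.70 in the null samples, against 3.38, 3.06 and 3.31 in the wild-type samples and differed by 0.38 (SE 0.17). Cdh3, which encodes P-cadherin of basal cells and lies next to Cdh1 on chromosome 8, differed by 0.72 (SE 0.35) against -0.17 for Cdh1. Cldn14 differed by 0.38 (SE 0.21), from dim levels of -4.45 to -3.82 in null and -4.76 to -4.43 in wild-type samples. It was well above background on 2 of the 3 wild-type arrays. With normexp background correction the Cldn14 difference was 0.0037 (limma adjusted p = 0.989). On the negative side, Cldn11 had levels of -3.35, -4.04 and -2.97 in the null samples, against -1.93, -2.51 and -2.58 in the wild-type samples, with no overlap and a difference of -1.11 (SE 0.32; limma adjusted p = 0.117). Cldn19, a claudin of kidney and of Schwann cells, differed by -1.12 (SE 0.56), and Vcl, which encodes the actin-binding vinculin, by -0.32 (SE 0.19). Schwann cell markers were negative in 6 of 7 and, with spike-in scaling, in 4 of 7 (median -0.58, or -0.29 with that scaling, summed level 4.61 to 4.86 in null and 4.96 to 5.07 in wild-type samples), with every one tested, and their part in the Cldn19 and Gjb1 values was not tested.

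Markers were set beside the label of epithelial cells, although their presence cannot show how pure the cells were. All 8 luminal and 10 basal markers were well above background on at least 3 arrays, while 3 of the 6 measured genes of cornified skin, Krt1, Krt77 and Ivl, were not above background on any array. The other 3, Krt10, Lor and Krtdap, were well above background on all 6 arrays and differed by 0.33 (SE 0.14), 0.31 (SE 0.24) and 0.19 (SE 0.29). Summed luminal levels were 10.83 to 11.24 in null and 10.94 to 11.02 in wild-type samples, and the luminal median difference was -0.08, or 0.21 with spike-in scaling. All 8 fibroblast markers were tested as well, with summed levels of 10.17 to 10.67 in null and 10.74 to 10.87 in wild-type samples. The samples therefore also held RNA of fibroblast markers. Hormone-sensing luminal markers were negative in 9 of 9 (8 of 9 with spike-in scaling), while 52.9% of all entries were positive. Their median was -0.91, with a summed level of 6.49 to 7.76 in null and 7.59 to 7.80 in wild-type samples. Of the 9, 1 passed an adjusted p of 0.05, Pgr (-1.96, limma adjusted p = 0.043), against 0.565% of all entries. The part of hormone-sensing cells in the Cldn4 value was not tested. With arrays centred on Krt8, Krt18 and Epcam, which are among the luminal markers, Cldn4 differed by -0.73 (limma adjusted p = 0.128). In that setting Gjb2 differed by 1.71 (limma adjusted p = 0.151). This centring scales on luminal genes and does not adjust for the share of basal cells.

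**Figure D4:**
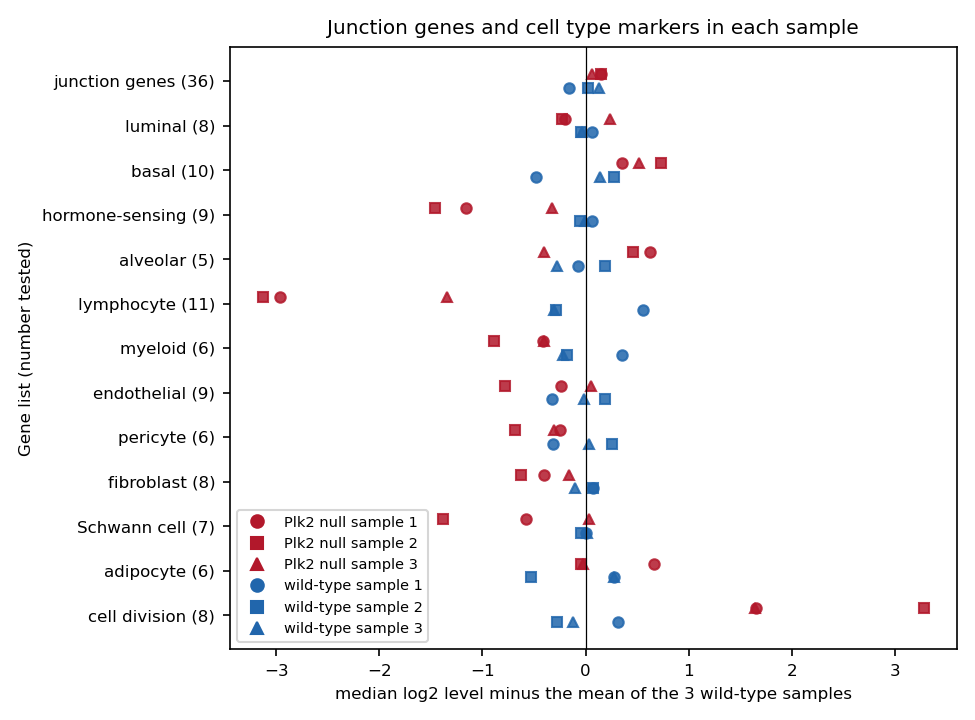
Median log2 level of the junction genes and of each marker list in each sample, relative to the mean of the 3 wild-type samples (red, null; blue, wild type; the marker shape gives the sample number; the number of tested genes is in parentheses). Junction gene medians lie between -0.16 and 0.15 in all 6 samples, while lymphocyte markers lie at -3.13 to -1.34 and cell division genes at 1.65 to 3.28 in null samples.

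In the authors' deposited table, which holds an unadjusted p-value and a ratio of wild type over null for each row, 0 of the 36 genes carried its mark for passing both of the authors' thresholds, against 921 of its 62976 rows, or 1.46%. The authors' deposited table gives 6 of the 36 a p-value under 0.05, against 13.4% of its rows: Gjb2 (ratio 0.321, p = 0.0295 in that table), Cldn23 (0.749, p = 0.0105), Cldn4 (1.63, p = 0.0226), Tjp3 (0.626, p = 0.0302), Ctnna1 (1.31, p = 0.0217) and Pkp2 (0.782, p = 0.0485). The rows of that table cover every spot of the array, control spots and dim probes among them. The 36 genes passed the filter on dim probes, so the shares come from unlike sets. A ratio under 1 means a higher level in null cells. Ctnna1, which fell short of an unadjusted p of 0.05 here, stands in that table at -0.39 on the log2 scale, null over wild type, against -0.17 here.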

How the data were processed

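The intensity used was the processed signal of each spot, background-corrected by Agilent Feature Extraction 11.0.1.1 on design 028005 (mm9 annotation), per the file headers, and deposited without normalization between arrays. Deposited 0 or 1 flags were used as given. A whole-series table deposited by the authors holds intensities, an unadjusted p-value, a ratio and a signed fold, taken as a score. The software behind it is not stated by the labels or headers, and its 6 intensity columns share 1 distribution.

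Log2 processed signals were centred on each array's 75th percentile over 59305 gene spots, after 1119 outlier spots were left out, and spots of a probe were averaged. Accessions were matched to symbols through a RefSeq table (GRCm38.p6); 26582 of 55681 probes matched. A probe was kept where well above background on 3 or more of 6 arrays, with the brightest probe per gene, giving 24609 entries. Differences are null minus wild type (limma 3.58.1 in R 4.3.3, lmFit and eBayes, Benjamini-Hochberg adjustment over all entries, threshold 0.05). Intervals are 95%. Steps were tested on simulated data. Alternatives changed the background correction, scaling, probe filter, probe choice, moderation, array weights, replicate block, samples left out and source of values. Members and lists were chosen with earlier results of these data known. All members are accounted for; those with an unadjusted p under 0.05 or without overlap, and Cdh1, are given in full, and those without a kept probe by signal. The 6 other junction genes with the smallest p in each direction, regulators with an unadjusted p under 0.05 and marker list counts are also given. Grhl2, Snai2, Gja3, Gja4 and markers other than the first of a list were named after their values were seen. Some genes that the rule selects are not reported here.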

Additional observations from a re-analysis of the deposited data

Results flagged for a closer look

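Signals appeared on single arrays in probes that were not tested because they were above background on too few arrays. Cldn2 was well above background in null sample 1 alone, at a level of -4.11, against at most -6.61 in wild-type samples. Cldn18, a claudin of stomach and lung, was likewise well above background in null sample 1 alone, at -0.89, against -7.10 and -6.27 in null samples 2 and 3 and at most -6.51 in wild-type samples. Ctnna2, the alpha-catenin of neurons, was at -0.42 in null sample 3, against -5.34 and -6.85 in null samples 1 and 2 and at most -4.31 in wild-type samples, 1 of which was also well above background. No test is possible on a single array, and these values are given without a test.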

How the results depend on the processing

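Of the 36 tested junction genes, 0 passed over all entries; 2 passed with normexp background correction at offset 50 (Gjb2 and Tjp3, against 5.03% of all entries), 1 with array weights (Gjb2, 5.99%), 1 at an adjusted p of 0.1 (Gjb2, 6.66%), and 0 to 1 as each sample was left out, the 1 being Gjb2 without null sample 3 (2.86%). The other junction genes gave 0, 1 with array weights and 0 to 1 as each sample was left out, Gjb6 in each case (without null sample 3). Every other planned setting gave 0 for both lists. The median difference of the junction genes, 0.067, was 0.36 with spike-in scaling, where the median of all entries was 0.32, 0.16 with array weights, -0.013 with the deposited table's values, and -0.051 (without wild-type sample 1) to 0.17 (without null sample 3) as each sample was left out. Cdh1 turned to 0.12 with spike-in scaling; the other 8 genes given in full kept their sign in all 18 alternatives. Spike-in scaling changed the sign of 9 of the 36 tested genes, array weights and leaving out null sample 3 of 5 each, leaving out wild-type sample 1 and the deposited table of 4 each, and every other setting of 0 to 3. The cause was not tested. The replicate block gave 0 called for both lists, against 0.0325% of all entries. Same-numbered samples deviated with correlations of -0.12, 0.038 and -0.018, and no sample correlated best with its own number. Correlations this weak cannot show whether the samples were paired. Testing every kept probe on its own, a setting chosen after seeing the data, gave 0. Probes near background, among them those of Dsg3, Dsc3 and Cldn2, have no measurable difference here.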
